A study of Homo sapiens with 20 samples.

Results

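The paraneoplastic Ma antigen (PNMA) family was followed in lung cancer cells through 4 of its genes, PNMA1, PNMA2, PNMA3 and PNMA5, picked by symbol from the 36076 genes of an mRNA-seq table. They were picked because PNMA5 goes from silence to expression after decitabine, and PNMA1, PNMA2 and PNMA3 stand beside it as relatives taken to be expressed already. The Mock and DAC levels therefore chose the members, and they are described here without a test. The cells were A549, CL1-0, CL1-5, PC9, H1299 and H1792, human lung cancer lines grown in RPMI-1640, each given PBS (Mock) or decitabine (DAC), a cytidine analog that traps and depletes DNA methyltransferases. DAC was given at 100 nM for 72 hours and was followed by 3 drug-free days. There was 1 mRNA-seq library per line and treatment, 12 in all, and 1 Omni-ATAC-seq library per treatment for A549, H1299, CL1-5 and PC9, 8 in all. The lines stand in for replicates, so a spread given below is a spread between lines. Because these are bulk samples, more cells with the RNA and more RNA per cell cannot be told apart.

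PNMA genes descend from the Gag gene of an ancient Ty3/gypsy retrotransposon that mammals took over as ordinary genes. Their products are best known as onconeural antigens. In paraneoplastic neurological syndromes a tumor expresses a protein normally found in the nervous system, in some cases also in testis. Antibodies against this protein accompany damage to the nervous system. PNMA1 (Ma1), PNMA2 (Ma2) and PNMA3 (Ma3) are targets of such antibodies. PNMA2 protein can assemble into virus-like capsids, PNMA3 keeps a retroviral type of ribosomal frameshift, and PNMA5 is known for its expression in the association areas of the primate cortex. A silent gene whose promoter holds many CpG dinucleotides is a usual place to look for an effect of a drug that lowers DNA methylation.

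PNMA5 (ENSG00000198883) lies on the minus strand of chromosome X from 152157368 to 152162660 in GRCh37, the build of the files. The GENCODE annotation places starts in 2 areas of the gene, which lie 1899 bp apart. The upstream start, at 152162660, begins the 4-exon transcript PNMA5-204, and the downstream start, at 152160761, begins 2 shorter transcripts and lies within intron 2 of PNMA5-204. The nearest genes with a row in the table are ZNF185, which ends 15343 bp away, and PNMA3, which begins 62106 bp away. PNMA3 (ENSG00000183837) occupies 152224766 to 152228827 on the plus strand of the same chromosome, and PNMA1 (ENSG00000176903) occupies 74178486 to 74181087 on the minus strand of chromosome 14. No annotated gene overlaps PNMA1, PNMA3 or PNMA5.

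The 250 bases before each start are shown for both PNMA5 starts, for PNMA1 and PNMA3, and for PNMA6E, a relative that was also at 0 reads in Mock. They were read from GRCh37 on the coding strand, 5′ to 3′, and CpG dinucleotides are in capitals. The first lies at chrX:152162661-152162910, the next at chrX:152160762-152161011, and those of PNMA3, PNMA1 and PNMA6E at chrX:152224516-152224765, chr14:74181088-74181337 and chrX:152666851-152667100.
PNMA5 upstream start: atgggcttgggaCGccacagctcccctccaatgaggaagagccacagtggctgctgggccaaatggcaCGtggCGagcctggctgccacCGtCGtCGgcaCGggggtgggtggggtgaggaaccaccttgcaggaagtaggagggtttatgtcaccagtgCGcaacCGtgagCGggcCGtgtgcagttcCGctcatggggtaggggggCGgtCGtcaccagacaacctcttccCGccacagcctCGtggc
PNMA5 downstream start: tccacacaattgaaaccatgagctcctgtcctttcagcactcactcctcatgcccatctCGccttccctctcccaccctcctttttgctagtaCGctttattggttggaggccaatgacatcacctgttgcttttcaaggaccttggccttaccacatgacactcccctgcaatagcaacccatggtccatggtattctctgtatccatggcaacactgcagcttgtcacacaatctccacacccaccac
PNMA3: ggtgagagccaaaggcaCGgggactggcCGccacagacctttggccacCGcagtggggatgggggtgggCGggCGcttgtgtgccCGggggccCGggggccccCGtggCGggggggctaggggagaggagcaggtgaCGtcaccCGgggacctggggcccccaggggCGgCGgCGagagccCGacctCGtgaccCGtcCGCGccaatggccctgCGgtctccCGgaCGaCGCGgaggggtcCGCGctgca
PNMA1: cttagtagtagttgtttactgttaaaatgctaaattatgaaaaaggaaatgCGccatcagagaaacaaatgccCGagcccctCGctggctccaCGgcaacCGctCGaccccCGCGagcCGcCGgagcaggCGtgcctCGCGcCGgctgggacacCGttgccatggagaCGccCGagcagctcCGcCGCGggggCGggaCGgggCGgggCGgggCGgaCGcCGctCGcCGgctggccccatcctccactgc
PNMA6E: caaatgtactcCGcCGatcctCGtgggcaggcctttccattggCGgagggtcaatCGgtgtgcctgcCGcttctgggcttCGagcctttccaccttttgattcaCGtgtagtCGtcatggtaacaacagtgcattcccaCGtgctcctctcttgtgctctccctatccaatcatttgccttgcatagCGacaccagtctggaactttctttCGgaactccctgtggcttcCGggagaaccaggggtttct

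The starts of PNMA5 differed from one another in CpG content. The window of the upstream start held 16 CpGs and 65.6% G and C, more CpGs than 67.8% of the 35381 windows of the table's genes, whose median was 7. The window of the downstream start held 2 CpGs and 50.8% G and C, and ranked above 15.7% of windows. PNMA1, PNMA2 and PNMA3 had 29, 25 and 26 CpGs, above 89.8%, 84.1% and 85.7% of windows. PNMA5 thus had fewer CpGs before its upstream start than the other members, and PNMA6E had 13. The ratio of observed to expected CpGs was 0.60 before the upstream start of PNMA5, 0.73 before PNMA3, 0.82 before PNMA2 and 1.05 before PNMA1. Both PNMA5 windows were the same, base for base, as those in the RefSeq promoter table of GRCh38.p14. The windows of PNMA3 (1 entry there) and PNMA6E (2 entries) matched none of their entries, and PNMA1 had no entry. The motif TGACGTCA, which CREB and ATF factors are known to bind, was present in the PNMA3 window and in 1.28% of all windows, on either strand. TCCCGCC, an E2F motif, was present in the windows of PNMA1 and of the upstream start of PNMA5, and in 11.3% of all. CCGGAAG, an ETS motif, was in the PNMA6E window and in 6.48% of all. These motifs were chosen after the sequences were seen, and a match is a description of the letters.

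Levels are given in FPKM, fragments scaled by the length of the transcript and the depth of the library, and as the whole reads behind them. Libraries of lines other than H1299 held 22234485 to 25303899 reads on genes, and those of H1299 held 59735913 (Mock) and 52634234 (DAC). In H1299, 85.5% and 81.9% of genes with 1 to 20 reads had an even number, against 39.2% to 41.5% in the other lines, so reads in H1299 are not independent counts and their intervals are too narrow. A gene with 3 reads or fewer is called undetected. Intervals are exact 95% Poisson intervals of the reads and cover counting error only. As for the labels, NKX2-1, NAPSA and SFTPB, markers of differentiated lung epithelium, were under 1 FPKM in all 12 libraries, and of the 8 epithelial and lung markers between 0 (CL1-0) and 5 reached 1 FPKM in Mock. The T cell marker CD3E and the leukocyte marker PTPRC were under 0.1 FPKM in every library.

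PNMA5 was undetected in Mock in each line. It had 1 read (0.0123 FPKM) in CL1-0 and 0 reads in each of the other lines. In A549, CL1-5, PC9, H1299 and H1792, 3 reads would give an FPKM of 0.0407, 0.0322, 0.0420, 0.0153 and 0.0352. After DAC PNMA5 had 6264 reads in H1299, 1296 in PC9, 1044 in A549, 856 in H1792, 611 in CL1-5 and 432 in CL1-0. The corresponding FPKM values were 34.5 (interval 33.6 to 35.3), 16.3 (15.4 to 17.2), 12.001 (11.3 to 12.8), 10.4 (9.69 to 11.1), 7.32 (6.75 to 7.92) and 4.24 (3.85 to 4.66). All DAC libraries lay above all Mock libraries, which is the pattern PNMA5 was picked for. The share of all genes separated in this way was not counted.

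With Mock set at a floor of 3 reads, the PNMA5 ratio was 295 in A549, 227 in CL1-5, 388 in PC9, 2260 in H1299 and 295 in H1792. The Poisson interval of 0 reads extends to 3.69 reads, above this floor, so these ratios are not lower limits. The H1299 ratio is less certain still, since reads in that line are not independent counts. In CL1-0 the ratio to the single Mock read was 344, with a counting interval of 61.5 to 13635. On the log2(FPKM + 0.1) scale the difference, DAC minus Mock, was 6.84 ± 1.19 (SD, n = 5 lines), without H1792, which the study's own mRNA-seq analysis left out. H1792 itself gave 6.71. A value on this scale depends on the pseudocount where Mock is at 0, and it was 3.68 with a pseudocount of 1. PNMA5 was at least 2-fold higher in 6 of 6 lines, beside 15.5% of 22603 genes for A549, 7.6% for CL1-0, 7.25% for CL1-5, 10.2% for PC9, 8.18% for H1299 and 10.3% for H1792.

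**Figure D1:**
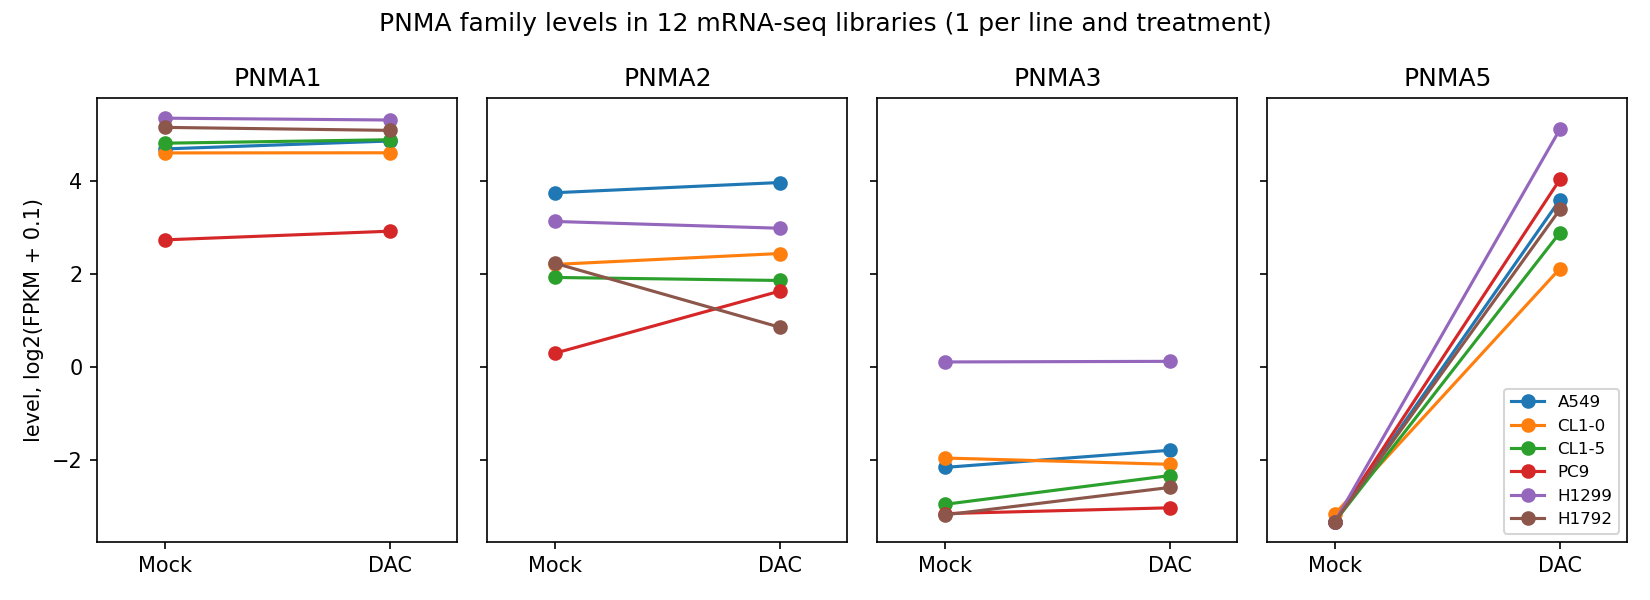
Each panel is a gene and each point 1 mRNA-seq library, with lines joining the Mock and DAC libraries of a cell line, and the y axis is the level in log2(FPKM + 0.1). PNMA5 moves from the floor of the scale to between 4.24 and 34.5 FPKM, while the 6 lines keep their order in PNMA1.

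The level that PNMA5 reached differed among the lines by 8.13-fold from CL1-0 to H1299. The order was H1299, PC9, A549, H1792, CL1-5, CL1-0. No neighbours in this order had overlapping intervals, and the closest pair, A549 and H1792, differed 1.16-fold (counting interval 1.06 to 1.27). With 1 library per line this speaks to the libraries only. H1299 stood 2.12-fold above PC9 (counting interval 1.99 to 2.25). Among all 36076 genes, the DAC level of PNMA5 stood at percentile 80.1 in CL1-0, 85.3 in CL1-5, 88.1 in H1792, 90.5 in A549, 92.3 in PC9 and 96.2 in H1299. The order was not that of the share of genes at least 2-fold higher, which was largest in A549 (Spearman's rho 0.43 over 6 lines, a description).

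**Figure D2:**
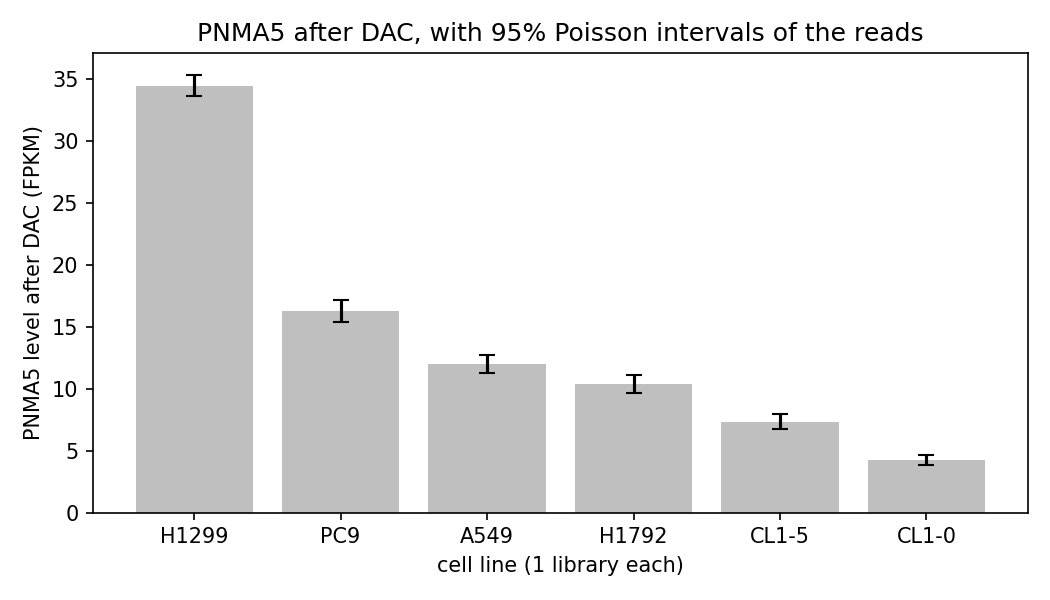
The y axis is the PNMA5 level after DAC in FPKM and the bars are the 6 cell lines in falling order, 1 library each, with exact 95% Poisson intervals of the reads. H1299 stands highest at 34.5 and CL1-0 lowest at 4.24.

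Silence in every Mock library together with detection in every DAC library was uncommon in the table. Of the 10901 genes with at most 3 reads in each of the 6 Mock libraries, 30 had more than 3 reads in each DAC library. Only 3 of these reached 1 FPKM in all 6 DAC libraries, PNMA5, DAZL (a germ cell RNA-binding protein) and SSX1 (a cancer testis antigen). PNMA5 ranked 1 of the 10901 by its lowest DAC level (4.24 FPKM, against 1.94 for DAZL and 1.365 for SSX1) and also by its mean DAC level (14.1 FPKM). Of the 30 genes, 9 lie on chromosome X, where 401 of the 10532 silent genes with a matched position lie. PNMA5 was chosen for this pattern, so these ranks describe it.

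PNMA1 was the most abundant member in Mock, and each line had nearly the same level after DAC. Its FPKM in Mock and DAC was 25.7 and 28.9 in A549, 24.2 and 24.3 in CL1-0, 28.0 and 29.5 in CL1-5, 6.56 and 7.47 in PC9, 40.7 and 39.6 in H1299, and 35.5 and 33.9 in H1792. PC9 was low in both groups and H1299 high in both, and the groups overlapped. The ratio of DAC to Mock lay between 0.956 in H1792 and 1.14 in PC9. The mean difference of 0.08 ± 0.10 on the log2(FPKM + 0.1) scale (SD, n = 5 lines) was smaller than the spread between lines, and was 0.20 when FPKM was rescaled to a common sum, which moved the median of all genes from 0.07 to 0.19.

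PNMA2 (ENSG00000240694, chromosome 8, 26362217 to 26371608, minus strand) was detected in all 12 libraries and went both ways. In Mock and DAC it had 13.3 and 15.5 FPKM in A549, 4.52 and 5.33 in CL1-0, 3.70 and 3.54 in CL1-5, 1.13 and 3.005 in PC9, 8.66 and 7.82 in H1299, and 4.60 and 1.71 in H1792. The largest differences were of opposite direction. In PC9 the DAC library stood 2.66-fold above Mock (131 and 388 reads, counting interval 2.18 to 3.27), and in H1792 the ratio was 0.372 (637 and 229 reads, counting interval 0.318 to 0.433). The mean difference was 0.32 ± 0.59 (log2 scale, SD, n = 5 lines), within the spread between lines. Without PC9 it was 0.06, and with H1792 added it was 0.03. PNMA2 overlaps the annotated genes BNIP3L and DPYSL2 on the opposite strand. The library kit was stranded, but whether the counting used strand is not given in the sources used here, so reads of PNMA2 and of these genes may not be separated.

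PNMA3, next to PNMA5 on chromosome X, was hardly expressed outside H1299, which goes against its choice as a gene already expressed in Mock. Its reads in Mock and DAC were 10 and 18 in A549, 14 and 15 in CL1-0, 3 and 9 in CL1-5, 1 and 2 in PC9, 1 and 6 in H1792, and 210 and 196 in H1299. H1299 held 0.980 and 0.990 FPKM, and no other library exceeded 0.190. In Mock it was detected in 3 of 6 lines and after DAC in 5. The counting interval of the ratio included 1 in all 6 lines, so no difference was detectable at this depth in any of them. Over the 5 lines the difference was 0.20 ± 0.30 (log2 scale, SD), and its direction turned to -0.12 after quantile normalization.

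The makeup of the 4 members shifted accordingly. PNMA5 made up 0% of their summed FPKM in Mock (0.0426% in CL1-0). After DAC its share was 12.5% in CL1-0, 18.1% in CL1-5, 21.2% in A549, 22.5% in H1792, 41.6% in H1299 and 60.8% in PC9. In PC9, where PNMA1 was lowest, PNMA5 stood above PNMA1 (16.3 and 7.47 FPKM) after DAC, and in the other lines PNMA1 remained the highest member.

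The family holds 9 more genes in the table, and 7 of them passed the filter of a mean FPKM of at least 0.1 over the 10 libraries of the 5 lines. In the limma fit across all genes, with the cell line as a block, 0 of the 7 were past a Benjamini-Hochberg adjusted p of 0.05, where 0.119% of all 22603 genes were called higher and 0% lower. At an unadjusted p under 0.05, 3 were higher and 0 lower, where 8.07% of all genes were higher and 4.4% lower, and limma's voom on the recovered reads called 1, where it called 0.88% of all genes higher and 0% lower. The median difference of the list was 0.20 (0.07 after quantile normalization, 0.55 with voom), beside 0.07 over all genes, with 5 genes above 0 and 2 below (6 and 1 when rescaled to a common sum or with voom, 4 and 3 after quantile normalization). Of all 22603 genes, 13290 were above 0 and 9313 below in the limma fit. The filter keeps genes that are high in either group, and 2 of the 3, PNMA6E and ZCCHC12, averaged under 0.1 FPKM in Mock and passed it only through DAC, so their place among the 3 supports nothing.

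PNMA6E (ENSG00000214897, chromosome X, 152661097 to 152666850, minus strand) was, like PNMA5, at 0 in Mock and expressed after DAC, but not in H1299. It had 0 reads in all 6 Mock libraries, and after DAC 521 reads in CL1-5, 513 in CL1-0, 377 in A549, 224 in PC9, 32 in H1792 and 0 in H1299. With Mock set at the floor of 3 reads, its ratio was 194, 136, 106, 67.1 and 11.03 in the first 5 of these. As for PNMA5, these ratios are not lower limits. H1299, the line with the most PNMA5, listed no PNMA6E reads in either group. The fitted difference was 4.39 (standard error 0.84), higher in 4 of 5 lines, and is given as a description, since the gene passed the filter only through DAC. Over the 6 DAC libraries the levels of PNMA6E and PNMA5 had a Pearson correlation of -0.75, a description in which H1299 carries weight. PNMA6 genes have near-identical copies on chromosome X, and how the counting divided reads among them is not known, so PNMA6 values are uncertain.

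PNMA6A, another copy of this group, was expressed in Mock in all lines but PC9. Its Mock and DAC levels were 4.12 and 2.06 FPKM in A549, 16.0 and 9.95 in CL1-0, 3.22 and 3.54 in CL1-5, 0 and 0.0391 in PC9, 11.6 and 6.53 in H1299, and 2.24 and 3.04 in H1792. It was lower in 3 of 5 lines, with a mean difference of -0.37 (standard error 0.24, adjusted p = 0.535 from limma). MOAP1, also called PNMA4, which binds the apoptosis effector BAX, lay between 4.30 and 17.1 FPKM in Mock and between 4.22 and 14.5 after DAC, with a difference of -0.02 (standard error 0.13, adjusted p = 0.961 from limma) that was above 0 when rescaled to a common sum or with voom.

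CCDC8, a partner of the growth-disorder proteins CUL7 and OBSL1, differed by line. It was undetected in Mock in A549, CL1-0, CL1-5 and PC9, where it had 134, 16, 10 and 6 reads after DAC. H1299 and H1792 expressed it in both groups, at 6.85 and 5.91 FPKM and at 2.41 and 2.01 FPKM. The mean difference was 1.37 (standard error 0.50, adjusted p = 0.344 from limma). ZCCHC12, a zinc finger relative, was low except in H1299, where its reads went from 24 to 138, and it was higher in 5 of 5 lines by 0.97 (standard error 0.33), a description too. PNMA8A was detected in both groups in A549, H1299 and H1792, and in CL1-5 after DAC alone (7 reads, against 2 in Mock), and averaged 0.20 higher (standard error 0.19, adjusted p = 0.652 from limma). ZCCHC18 differed by 0.18 (standard error 0.23, adjusted p = 0.749 from limma), which was below 0 after quantile normalization. PNMA6F and PNMA8B were under the filter, with at most 4 and 24 reads in a library. PNMA8B was undetected in all Mock libraries, and after DAC it was detected in A549 (16 reads), PC9 (12) and H1299 (24).

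**Figure D3:**
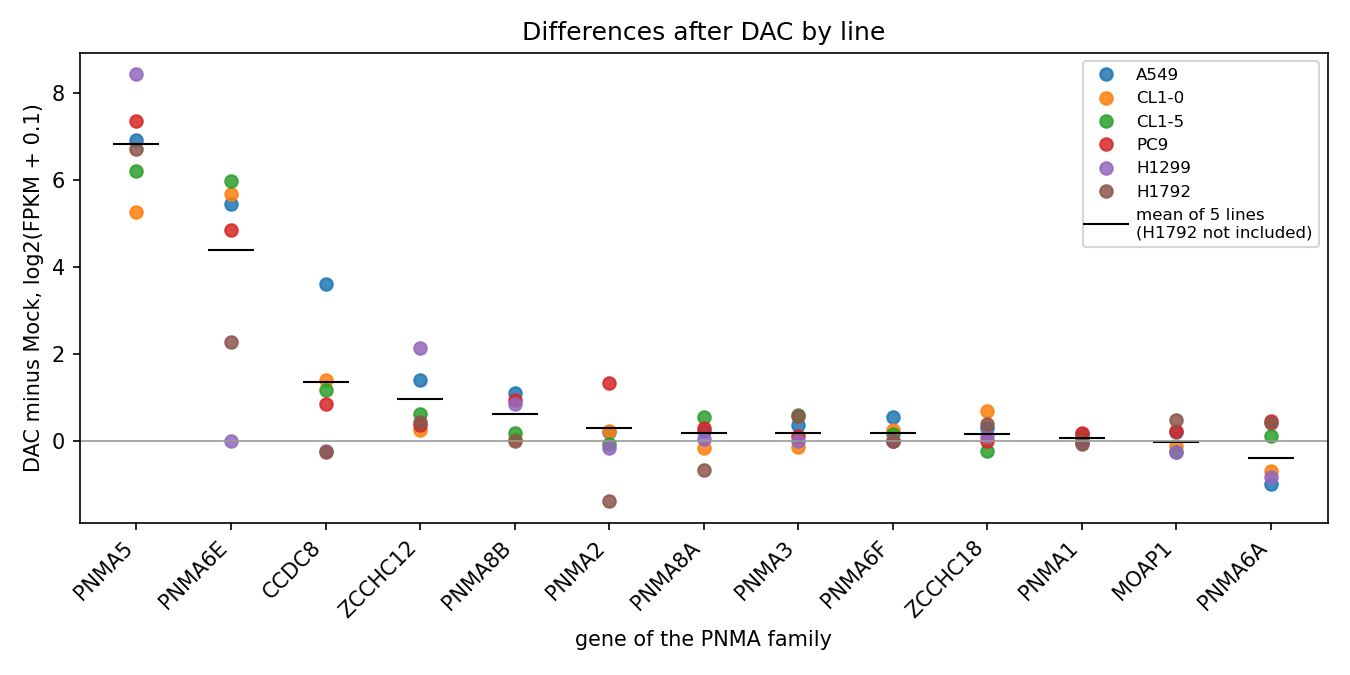
The y axis is the difference DAC minus Mock in log2(FPKM + 0.1) and the x axis lists 13 PNMA family genes, with 1 point per cell line and a bar at the mean of 5 lines. PNMA5 lies at 5.27 or more in each line, PNMA6E reaches 5.98 in CL1-5 and is at 0 in H1299, and most other genes lie near 0.

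Other gene lists around PNMA5 gave no call in the same fit, which called 0.119% of all genes higher and 0% lower. Of 13 other genes derived from retrotransposon Gag sequences, 9 were tested, and 0 were called by limma or by voom. At an unadjusted p under 0.05, 2 were higher and 2 lower (8.07% and 4.4% of all genes), and the median was -0.03, beside 0.07 over all genes (0.09 beside 0.19 when rescaled to a common sum). ARC, a neuronal gene whose protein forms capsids, had the highest value, 1.51 (standard error 0.22, adjusted p = 0.0837 from limma), higher in 5 of 5 lines, from 0.336 ± 0.470 FPKM in Mock to 0.999 ± 1.05 after DAC (SD, n = 5 lines). RTL8A, which has near-identical copies, had the lowest, -0.52 (standard error 0.14, adjusted p = 0.270 from limma), lower in 5 of 5 lines.

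Onconeural antigens other than PNMA genes numbered 15 in the table, and 11 were tested. Limma and voom called 0 of them, where 0.119% and 0.88% of all genes were called higher and 0% lower. At an unadjusted p under 0.05, 0 were higher and 0 lower, beside 8.07% and 4.4% of all genes. With so few genes tested, 0 calls lie near these shares. The median of these antigens was 0.16 (-0.0012 after quantile normalization). The values ran from NOVA2, an RNA-binding protein of neurons, at -0.33 (standard error 0.28, adjusted p = 0.619 from limma) to KLHL11, the target of an antibody seen with testicular tumors, at 0.53 (standard error 0.27, adjusted p = 0.447). The PNMA5 difference on the same scale was 6.84. The 5 neuronal markers summed to 4.35 to 37.8 FPKM in Mock and 3.01 to 36.3 after DAC. Of the 5, 0 were called after DAC by limma or voom, near the shares of all genes given above. At an unadjusted p under 0.05, 0 were higher and 1 lower, beside 8.07% and 4.4% of all genes.

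MAGEA genes, cancer testis antigens of the same chromosome region, are the usual reference for genes that a DNA methyltransferase inhibitor turns on. Of the 11 listed, 10 were tested, and 0 were called by limma or voom, while 2 were higher and 0 lower at an unadjusted p under 0.05, beside 8.07% and 4.4% of all genes. All 10 were above 0 under each of the 4 scalings, with a median of 1.38 (0.77 with voom). Over all 22603 genes, limma put 13290 above 0 and 9313 below. The values ran from MAGEA6 at 0.25 (standard error 0.18, adjusted p = 0.571 from limma) to MAGEA4 at 3.45 (standard error 1.52, adjusted p = 0.408). Unlike PNMA5, many MAGEA genes were already on in Mock. In A549, 8 of the 11 were undetected in Mock and 7 of those were detected after DAC, but in H1299 2 were undetected and 0 of these were detected after DAC. In the same H1299 libraries PNMA5 reached its highest level. MAGEA copies are near-identical, so single values are uncertain.

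Genes that start within 500 kb of the upstream start of PNMA5, members aside, numbered 21, and 16 were tested. None was called by limma or voom, and 2 were higher and 0 lower at an unadjusted p under 0.05 (8.07% and 4.4% of all genes). Their median was 0.58, and within 250 kb, where 7 genes were tested, it was -0.16. The list includes MAGEA1, MAGEA2, MAGEA2B, MAGEA3, MAGEA6 and MAGEA12 of the MAGEA list, and PNMA6A and PNMA6F of the family. It is therefore not independent of those lists. In A549, 11 of the 16 tested were at least 2-fold higher, in H1792 9, in CL1-0, CL1-5 and PC9 1 each, and in H1299 0. Over all genes the share was 15.5% in A549, 10.3% in H1792 and 7.25% to 10.2% in the others, so the counts of 1 lie near it. The highest was MAGEA1 at 2.15 (standard error 0.94, adjusted p = 0.408 from limma) and the lowest PNMA6A. ZNF185, an actin-associated LIM protein and the nearest gene on one side, had 6.50 ± 4.66 FPKM in Mock and 6.56 ± 6.47 after DAC (SD, n = 5 lines) and differed by -0.20 (standard error 0.19, adjusted p = 0.658 from limma). PNMA3, the nearest on the other side, is given above. ZNF185 did not show the pattern of PNMA5. PNMA3 was picked as a contrast to PNMA5, so its lack of the pattern says nothing about position.

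Some genes followed PNMA5 closely over the 12 libraries. By Pearson correlation of log2(FPKM + 0.1) among 22814 genes, the 8 closest were DAZL (0.98), TKTL1 (0.98), TSPYL6 (0.98), FMR1NB (0.97), MAGEB1 (0.97), SPDYC (0.97), MAEL (0.96) and B3GNT8 (0.96), and 17 genes reached 0.9. They share silence in Mock, with at most 4 reads of any of them in a Mock library, so the value mostly reflects the step from Mock to DAC. Over the 6 DAC libraries alone, the correlation was 0.96 for FMR1NB (a testis protein), whose 6 DAC levels had the same order as those of PNMA5, 0.94 for TSPYL6 and 0.88 for MAGEB1, but 0.62 for DAZL and 0.34 for SPDYC. TKTL1, a transketolase-like enzyme gene on chromosome X, reached 28.4 FPKM and had 0.82. Within the family, no other gene exceeded the 0.76 of PNMA8B over the 12 libraries, and PNMA1, PNMA2 and PNMA3 had 0.03, 0.04 and 0.19. The PNMA8B value rests on at most 24 reads in a library, and the gene was under the filter.

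Omni-ATAC-seq, in which a transposase cuts accessible DNA, was not used to choose the members. Each library comes as a list of 45354 to 97584 broad peaks called on its own, and the fold enrichment over background is comparable only within a list. A promoter peak is one within 3000 bp of the 5′-most start of a gene. The labels and the names inside the lists exchange CL1-5 and PC9. For 175 genes that mRNA-seq put at 5 FPKM or more in PC9 Mock and under 0.1 in CL1-5 Mock, the share with a promoter peak was 82.3% under the Mock label CL1-5 and 47.4% under PC9, and for 121 genes of the opposite kind it was 46.3% and 72.7%. These libraries go against their labels, are named by them throughout, and are left out where stated. The smallest p that an exact two-sided permutation test allows over 4 lines is 0.13, so no test was made.

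The upstream start of PNMA5 was covered by a peak in 0 of 4 Mock libraries and in 2 of 4 DAC libraries. In A549 no promoter peak was present in Mock, and after DAC a peak at chrX:152162647-152162937 covered the upstream start (fold enrichment 3.95, -log10 q 3.23, percentile 53.4 of the 78199 peaks of that library). It spans all 250 bases printed for the upstream start. In the library labelled CL1-5, a peak at chrX:152160430-152160702 lay 59 bp inside the downstream start in Mock (fold enrichment 2.63), and after DAC a peak at chrX:152162627-152162870 covered the upstream start (fold enrichment 2.70, -log10 q 1.52, percentile 10.1). In the library labelled PC9 no promoter peak was listed in Mock, and after DAC one at chrX:152160891-152161259 ended 130 bp before the downstream start (fold enrichment 2.93, -log10 q 1.361), across intron 2 and part of exon 2 of PNMA5-204. H1299 had no promoter peak in either library, and its nearest peak after DAC was 5584 bp from the upstream start, beyond the 3′ end of the gene.

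A promoter peak was thus listed for PNMA5 in 1 of 4 Mock and 3 of 4 DAC libraries, where of 35251 genes 57.8% had one in A549 Mock and 62.6% in A549 DAC. H1299 had 54.1% and 58.4%, the label CL1-5 62.1% and 64.5%, and the label PC9 60.0% and 64.7%. Among genes without one in Mock, 17.9% gained one in A549, 15.4% in H1299, 17% in the libraries labelled CL1-5 and 18.6% in those labelled PC9. PNMA5 gained one in 2 of the 3 labelled lines in which it had none. With only A549 and H1299, whose labels and names match, it was 0 of 2 in Mock and 1 of 2 after DAC. At a q-value under 0.01 the A549 peak alone remained. The line with the highest PNMA5 level, H1299, was the line without a peak. Its peak lists were also the shortest of each treatment, with 45354 peaks in Mock and 63541 after DAC. Whether this bears on the missing peak was not tested. Of the 30 genes silent in all Mock and detected in all DAC mRNA-seq libraries, 7 had a promoter peak in H1299 Mock and 11 in H1299 DAC, near the 23.9% and 29.9% of all 10532 silent genes with a position. A549 had 7 and 15 (28.6% and 35.9% of silent genes), the label CL1-5 gave 13 before and 11 after (36.2% and 39.6%), and the label PC9 gave 13 before and 16 after (32.2% and 39.2%).

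PNMA3 had a promoter peak in 2 of 4 Mock and 4 of 4 DAC libraries, and at a q-value under 0.01 in 2 of 4 of each. The peak covered its start in 1 Mock library and in all 4 DAC libraries, and in the Mock library labelled CL1-5 it lay 2589 bp inside the gene. The Mock library with a peak over the start was that of H1299, the line with the most PNMA3 reads (fold enrichment 3.09), and the DAC values were 2.73 in A549, 2.88 in H1299, 2.73 in the library labelled CL1-5 and 3.75 in that labelled PC9. The A549 peak was among the weakest of its list, at percentile 6.51. PNMA1 and PNMA2 had a peak over their start in 8 of 8 libraries. The fold enrichment of PNMA1 was between 4.20 and 5.89 at the start and that of PNMA2 between 3.11 and 4.18. PNMA6E had a peak in all 8 libraries too, but beside its start rather than over it, 687 to 1009 bp inside the gene, with fold enrichments of 4.45 to 8.15. It was present in H1299, where PNMA6E had no reads, and in all Mock libraries.

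**Figure D4:**
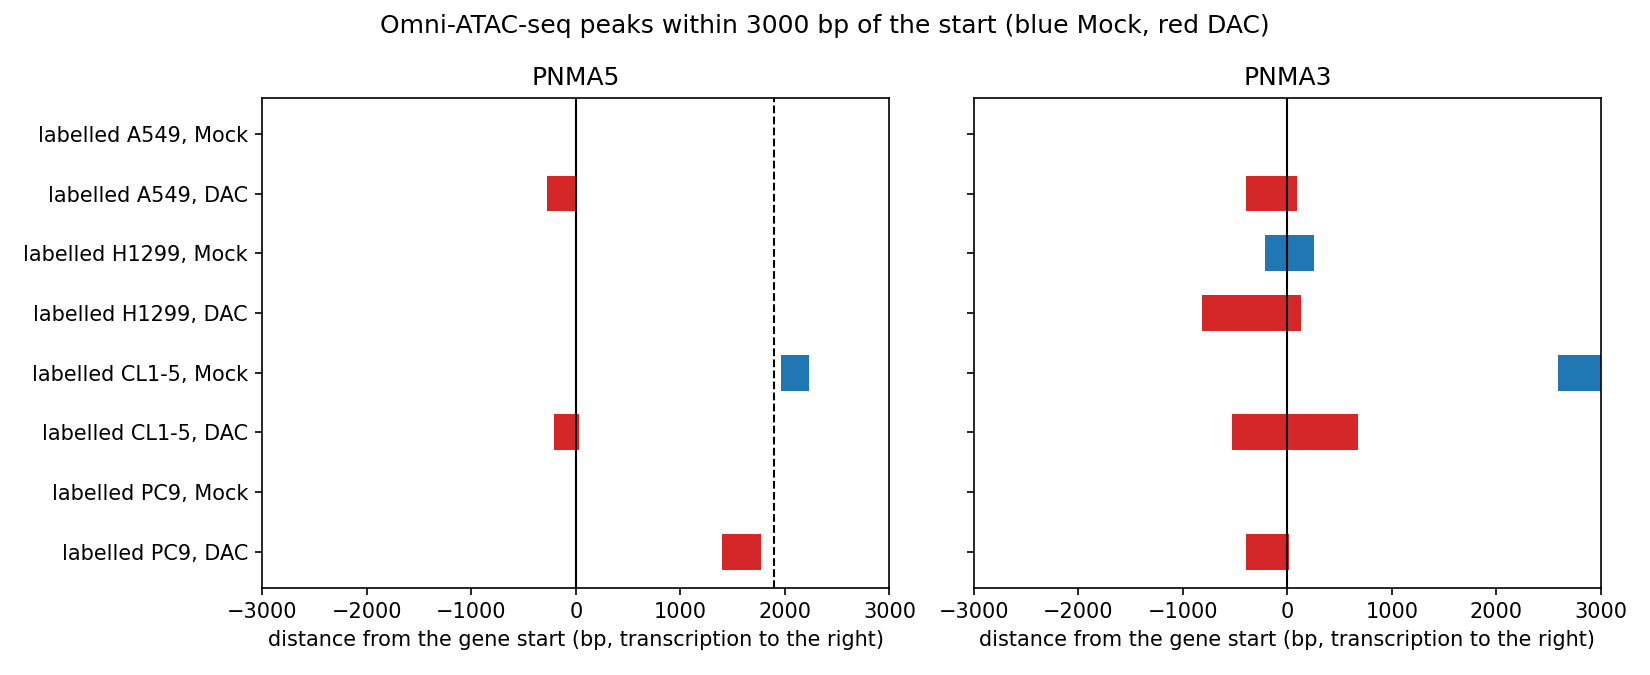
The x axis is the distance in bp from the gene start, with transcription to the right, and each row is a library as labelled, with Mock peaks in blue and DAC peaks in red. The solid line is the start, the dashed line the downstream start of PNMA5 at 1899 bp, and 1 bar runs past the edge. Peaks at the upstream start of PNMA5 occur in 2 DAC libraries, and H1299 has none.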

How the data were processed

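The members and gene lists were chosen with earlier results of these data known. For mRNA-seq, the authors trimmed reads, used RSEM with bowtie2 for alignment to hg19, counted on GENCODE genes with GenomicAlignments, and deposited FPKM values from DESeq2 1.24.0 (the submitters' processing notes also list TopHat2 2.1.1). The same table holds a mean normalized signal per gene, deposited by the authors, and the authors' own log2 fold changes, standard errors, test scores and p-values, which were not used. For Omni-ATAC-seq, the authors aligned reads with BWA 0.7.17-r1188, took out duplicates, ran MACS2 2.2.5 in broad mode on each library, annotated them with ChIPseeker 1.20.0, and deposited fold enrichment (a ratio) and -log10 q-values. ATAC depth per library is unknown. The number of sample columns left unused for want of a sample was 0.

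Samples were grouped by the labels' cell line and treatment. The mean normalized signal and the FPKM values gave the reads behind each value as whole multiples of 1 read, and 100% of values in each library came out whole, within 0.01 reads. Totals were 22234485 to 59735913 reads. Genes averaging 0.1 FPKM or more in the 10 libraries of 5 lines (H1792 excluded, after the study's methods) entered a limma 3.58.1 fit (R 4.3.3) on log2(FPKM + 0.1), with the line as a block, an empirical Bayes trend and Benjamini-Hochberg adjustment at 0.05. Fold changes on this scale understate those of low genes. By the study's reporting summary, cells in its cell experiments were divided among treatments from 1 parental culture, and each library's deviation from its treatment mean correlated with that of its own line at 0.73 to 0.90, against 0.11 or less with other lines. Tested on simulated data for this comparison, over 22603 genes, the fit called 127 of 200 changed genes, all 127 in the right direction, with 3 false calls, and 58 of the 66 changed by 3 on the log2 scale. The simulated shifts were the same in every line apart from normal noise. More genes passed than the 27 of the real fit, which loosens the Benjamini-Hochberg cutoff. The share found therefore does not carry over to the real fit. Intervals of ratios are exact conditional binomial intervals at 95%.

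Positions come from the GENCODE annotation of GRCh37, with 35251 of 36076 genes matched on chromosomes 1 to 22 and X. Of the peaks, 590007 lay on chromosomes of this genome, 0 beyond their ends, and 1380 on names not matched. Peaks were compared by presence within 3000 bp. Named genes are the 4 members, all other PNMA family genes, the highest and lowest gene of each further list, the neighbours of PNMA5 and the 8 genes most like it. Alternatives were other pseudocounts, filters, scalings, lines, a fit without the block, voom, a q-value under 0.01, windows of 1000 bp and 250 kb, and, added after seeing the data, leaving out libraries whose labels and names differ and each ATAC line in turn. Analyses used Python 3.11.15, numpy 2.4.6, scipy 1.17.1 and matplotlib 3.10.9.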

Additional observations from a re-analysis of the deposited data

Results flagged for a closer look

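Samples far from the others of their group were looked for in the levels and differences of the 4 members over the 6 lines, 12 groups of values in all, by the gap of the highest or lowest sample to its neighbour as a share of the range (critical value 0.625). Chance alone marks about 1 in 20 groups. PNMA1 was low in PC9, at 2.73 in Mock (next 4.60) and 2.92 after DAC (next 4.61) on the log2(FPKM + 0.1) scale. PNMA3 was high in H1299 Mock, at 0.11 (next -1.95). PNMA5 in CL1-0 Mock stood at -3.15 against -3.32 in the other lines, which is 1 read against 0.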

How the results depend on the processing

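Each comparison rests on 1 library per line and treatment, so the spread is that between lines, and PNMA5 has a true level in Mock that 0 reads bound only from above. The count of 27 genes called over all genes was 0 with a pseudocount of 1 or without the filter, 41 after rescaling to a common sum, 17 after quantile normalization, 53 with H1792, 10 without the replicate block and 199 with voom, and ran from 0 (without A549, or without CL1-5) to 23 (without H1299) with a line left out. It was 31 with a pseudocount of 0.01 and 28 at a mean FPKM of at least 1. The other PNMA family list went from 0 to 1 call, PNMA6E, with voom and without H1299 (range 0 to 1), a gene that passed the filter only through DAC, and the 4 further lists had 0 calls under every alternative run. Dropping the replicate block changed no call in any of the 5 lists.

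The mean difference of PNMA5 was 3.68 with a pseudocount of 1, 9.95 with 0.01 and 8.42 rescaled to a common sum, and 6.44 to 7.23 with a line left out. PNMA1 moved to 0.20 when rescaled and PNMA3 to -0.12 after quantile normalization, with other values within 1 SD. By window, peaks for PNMA3 in Mock were 1 within 1000 bp, and for PNMA5 in Mock 0. At a q-value under 0.01 PNMA3 after DAC had 2, PNMA5 in Mock 0 and PNMA5 after DAC 1. Without the libraries labelled CL1-5 and PC9, PNMA1 and PNMA2 had 2 of 2 in each group, PNMA3 1 in Mock and 2 after DAC, and PNMA5 0 and 1. With 1 labelled line left out, Mock peaks were 1 to 2 for PNMA3 and 0 to 1 for PNMA5. The mean share of genes gaining a promoter peak, 17.2%, was 11.1% at a q-value under 0.01 and 10.5% within 1000 bp.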
